A study of Homo sapiens with 6 samples.

Results

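The matrix metalloproteinases (MMPs), the ADAM, ADAMTS and ADAMTS-like (ADAMTSL) families and their tissue inhibitors (TIMPs) were examined in U251 glioblastoma cells with and without CRISPR targeting of NUAK2. Members were the rows of the count table whose NCBI gene identifier maps to a protein-coding symbol made of one of these family names and a number. This rule found 71 of the 28395 genes listed: 23 MMPs, 20 ADAMs, 19 ADAMTS genes, 5 ADAMTSL genes and 4 TIMPs. It used names and no measured value. ADAM5, ADAM6 and MMP23A were left out because they are not annotated as protein-coding, and 650 identifiers without a symbol could not be assigned.

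The series holds 6 bulk RNA-sequencing libraries of U251MG, an established human glioblastoma cell line, with 3 WT libraries and 3 NUAK2-CR libraries. NUAK2-CR cells carried a pair of Cas9 vectors, marked by GFP and mCherry and bearing the same guide against NUAK2, and were expanded from single sorted cells, whereas no vector is stated for WT. No drug or other agent is given for either group, and both were grown in the same serum-containing medium. The labels name no clone, so the NUAK2-CR libraries may be repeat samples of 1 clone, and p-values then measure only the spread between these samples. The paper names CR3 as the clone carried into its further work. With 1 clone, differences between clones and NUAK2 targeting cannot be told apart. NUAK2 itself, the check of the labels, had normalized counts of 1926, 1457 and 1580.1 in WT and 799, 961 and 849 in NUAK2-CR (log2 fold change -0.93, SE 0.11, adjusted p = 1.8e-05).

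These families cut the proteins around and on the cell. MMPs are zinc proteases that cleave collagens, gelatin, laminin and other matrix proteins; most are secreted as inactive precursors, and the membrane-type MMPs stay anchored at the cell surface. ADAMs are transmembrane proteins, and those with an active site release the outer parts of growth factors, receptors and adhesion molecules. ADAMTS enzymes are secreted and process proteoglycans, procollagens or fibrillin-linked proteins, whereas the ADAMTSL proteins lack the protease domain. TIMPs bind the active site of MMPs and of some ADAM and ADAMTS enzymes, and in gliomas these families are known for their part in invasion through brain matrix. All values here are RNA levels and say nothing of enzyme activity.

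The promoters of a few members are shown because 2 of the MMPs that fell carry the binding letters of AP-1, a transcription factor known to drive several MMP genes. The 120 bases before the start are printed 5′ to 3′ from the RefSeq promoter table, build GRCh38.p14, with the AP-1 letters TGANTCA and the TATA letters TATAAA (both strands searched, no overlap between them) in capitals. The lines give the members that fell and hold the AP-1 letters, then 3 of the members that rose most. They were chosen after the values were seen. ADAMTS20 and ADAMTS14, which rose more than MMP14 (log2 fold changes 3.21 and 2.63 against 2.16), are not printed.
MMP7: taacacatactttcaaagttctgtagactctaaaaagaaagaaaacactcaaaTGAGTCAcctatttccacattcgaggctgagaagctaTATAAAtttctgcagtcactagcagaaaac
MMP10: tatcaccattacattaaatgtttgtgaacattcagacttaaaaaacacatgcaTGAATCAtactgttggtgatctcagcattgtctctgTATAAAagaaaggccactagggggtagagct
ADAMTS12: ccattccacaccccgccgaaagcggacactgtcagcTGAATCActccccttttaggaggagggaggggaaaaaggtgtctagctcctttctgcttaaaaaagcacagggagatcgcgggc
MMP14: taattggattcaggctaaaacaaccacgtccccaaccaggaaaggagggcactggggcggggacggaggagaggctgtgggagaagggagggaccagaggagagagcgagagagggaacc
ADAMTS18: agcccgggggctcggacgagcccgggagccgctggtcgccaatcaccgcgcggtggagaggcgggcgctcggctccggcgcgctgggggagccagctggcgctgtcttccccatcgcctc
TIMP3: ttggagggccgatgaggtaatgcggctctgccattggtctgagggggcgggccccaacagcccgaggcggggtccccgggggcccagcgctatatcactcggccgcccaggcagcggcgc
These windows lie at chr11:102530748-102530867 for MMP7, chr11:102780629-102780748 for MMP10, chr5:33891991-33892110 for ADAMTS12 and chr16:77435035-77435154 for ADAMTS18, all on the minus strand. MMP14 lies at chr14:22836465-22836584 and TIMP3 at chr22:32801585-32801704, both on the plus strand. In MMP7 and MMP10 the AP-1 letters begin 67 bases before the start and the TATA letters 30 and 31 bases before it, so both promoters have the same layout. MMP14, ADAMTS18 and TIMP3 hold neither set of letters in the printed windows.

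Of the 71 members, 50 passed edgeR's filter on low counts and were tested by edgeR's quasi-likelihood method, with p-values adjusted over all 14873 genes tested. At an adjusted p under 0.05, 25 were higher in NUAK2-CR, 15 were lower and 10 were not called. The called share was 80.0% of the tested members, beside a background of 54.5% of all genes tested (26.3% higher and 28.2% lower). With an absolute log2 fold change over 1 as well, 17 were higher and 10 lower, or 54.0% of the tested members against 13.9% of all genes (6.91% higher and 6.96% lower). With a log2 fold change beyond 2 in size at the same adjusted p (called DEGs), there were 5 higher (MMP14, ADAMTS14, ADAMTS18, ADAMTS20 and TIMP3) and 4 lower (MMP7, MMP9, MMP10 and ADAMTS15), beside 1.89% and 2.83% of all genes. The 3 libraries of each group did not overlap for 41 tested members, or 82.0%, against 61.4% of all genes. Over the tested members the median log2 fold change was 0.24, beside -0.01 over all genes tested.

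**Figure D1:**
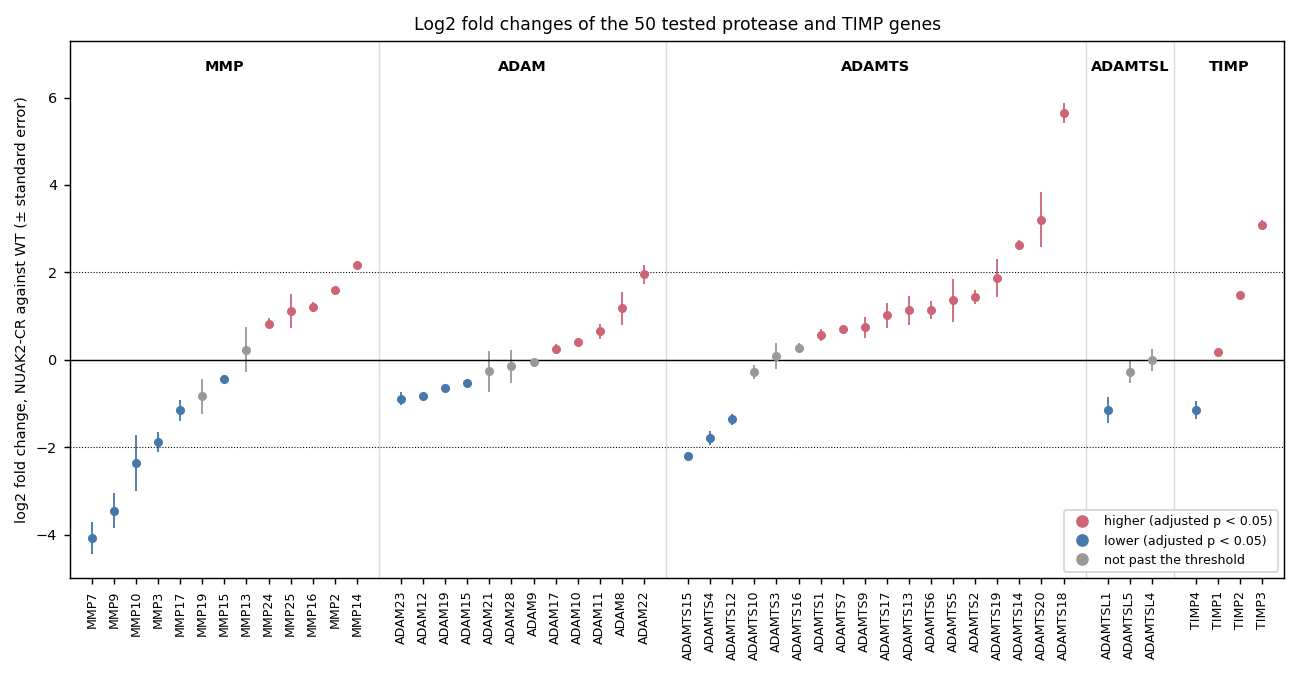
Log2 fold change of each of the 50 tested members in NUAK2-CR against WT (y axis), with standard errors, grouped by family and ordered by size (x axis), and dotted lines at the DEG threshold. The MMPs run from -4.08 for MMP7 to 2.16 for MMP14, and 12 of the 18 ADAMTS genes are called higher.

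Of 13 MMPs tested, 5 rose and 6 fell, with a median of -0.43. Of 12 ADAMs, 5 rose and 4 fell, with a median of -0.10, and no ADAM was a DEG. Of 18 ADAMTS genes, 12 rose and 3 fell, with a median of 0.88. Of 3 ADAMTSL genes, none rose and 1 fell, and of the 4 TIMPs 3 rose and 1 fell. Of all genes tested, 26.3% were higher and 28.2% lower. Whether the families differ was not tested.

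The 2 most abundant MMPs per kb, MMP14 and MMP2, rose. MMP14, also called MT1-MMP (NCBI gene 4323, chr14:22836585-22847758, GRCh38), is a membrane-anchored collagenase and the main activator of proMMP2. Its normalized counts were 6482, 7519 and 7664 in WT and 31818, 33253 and 31615 in NUAK2-CR. Every NUAK2-CR library was more than 4-fold above every WT library, and the log2 fold change was 2.16 (SE 0.08, adjusted p = 6.87e-10). MMP2, the gelatinase that MMP14 activates (NCBI gene 4313, chr16:55478830-55506691), had 7484, 8779 and 8181 in WT and 24629, 25189 and 23999 in NUAK2-CR. The groups were far apart, with a log2 fold change of 1.59 (SE 0.07, adjusted p = 4.75e-09).

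All 6 membrane-type MMPs were tested and called, 4 higher and 2 lower, beside 54.5% of all genes called. Beside MMP14, MMP16 rose from 1104 ± 189 (SD, n = 3) to 2537 ± 240.3 normalized counts, a log2 fold change of 1.20. MMP24 rose from 478 ± 73.2 to 848 ± 97.4, or by 0.82 on the log2 scale. MMP25 was low, at 27.3 ± 13.7 and 60.5 ± 10.8, with a log2 fold change of 1.12 (SE 0.38, adjusted p = 0.0256) that was no longer called when WT replicate 3 was left out (adjusted p = 0.0692) or without NUAK2-CR replicate 1 or 3 (0.0739 and 0.0707). MMP24 and MMP25 share exon bases with the antisense genes MMP24OS and MMP25-AS1, and the strand setting of the counting is not given in the sources used here, so their counts are uncertain. MMP17, which has a glycolipid anchor, had 154, 106 and 114 in WT and 57.1, 65.1 and 46.1 in NUAK2-CR, with a log2 fold change of -1.16. MMP15 fell less, from 1031 ± 54.1 to 762 ± 32.0, with a log2 fold change of -0.43.

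The secreted MMPs that fell were low in WT and lower still in NUAK2-CR. MMP7, or matrilysin (NCBI gene 4316), is a small secreted protease without the C-terminal hemopexin domain. Its raw counts were 182, 147 and 133 in WT and 2, 10 and 8 in NUAK2-CR. No library overlapped, and the log2 fold change was -4.08 (SE 0.37, adjusted p = 1.5e-06). Its direction, like every other here, rests on the library labels, which NUAK2 RNA was read against above. MMP9, the other gelatinase (NCBI gene 4318, chr20:46008908-46016561), had raw counts of 118, 53 and 90 in WT and 6, 6 and 5 in NUAK2-CR. It therefore went the opposite way to MMP2, with a log2 fold change of -3.46 (SE 0.40, adjusted p = 1.21e-05).

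The 2 tested stromelysins, which cut proteoglycans and laminin and can activate other MMPs, both fell. MMP3 had raw counts of 303, 205 and 210 in WT and 43, 32 and 68 in NUAK2-CR (log2 fold change -1.89, SE 0.23, adjusted p = 2.43e-05). MMP10 had 31, 34 and 20 in WT and 0, 6 and 6 in NUAK2-CR (log2 fold change -2.37, SE 0.64, adjusted p = 0.00698). MMP10 and MMP9 passed the filter only through their WT libraries, and ADAMTS20 only through its NUAK2-CR libraries, so these genes had to differ to be tested. Among the other called members, MMP7, ADAM8, ADAMTS5, ADAMTS18 and ADAMTS19 did not reach the filter's level in every library of their lower group. They too needed libraries of their higher group to be tested. MMP13, a collagenase, had 10.7 ± 5.0 and 13.1 ± 2.99 normalized counts and was not called (log2 fold change 0.23, adjusted p = 0.73). MMP19 was at 21.9 ± 2.22 and 12.3 ± 1.19 and missed the threshold (log2 fold change -0.83, adjusted p = 0.0943), and it shares 821 exon bases with TMEM198B on the opposite strand.

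The other MMPs were hardly detected. MMP1, interstitial collagenase, had raw counts of 35, 10 and 19 in WT and 8, 6 and 4 in NUAK2-CR, and was not tested. MMP21 had 11, 11 and 1 in WT and 8, 3 and 9 in NUAK2-CR. MMP12, macrophage elastase, had 4, 8 and 6 in WT and 0 in every NUAK2-CR library, which is at least 1.57-fold lower against a floor of 3 counts per library, for counting error only. MMP23B stayed under 10 counts in each library, and MMP8, MMP11, MMP20, MMP26, MMP27 and MMP28 had 0 counts in all 6.

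Of the 6 MMPs that fell, 3 are neighbours. MMP7, MMP20, MMP27, MMP8, MMP10, MMP1, MMP3, MMP12 and MMP13 lie in that order within 435.2 kb of chromosome 11, from 102520508 to 102955732 in GRCh38 coordinates of GENCODE, all on the minus strand. Of these 9 genes, 4 were tested, 3 fell and none rose, while MMP13 at the far end was not called. The 9 other tested genes within 1 Mb of the cluster had a median log2 fold change of 0.44. They include YAP1, at 0.74, and BIRC3, at 1.16, on the MMP7 side. Each fold change was also taken less the median of the 10 tested genes on either side, which included other MMPs of the cluster. That median was first set against the median over all genes tested. By this measure MMP7 was at -4.13, MMP10 at -2.46 and MMP3 at -1.94 on the log2 scale. MMP9 lies on chromosome 20, outside the cluster.

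**Figure D2:**
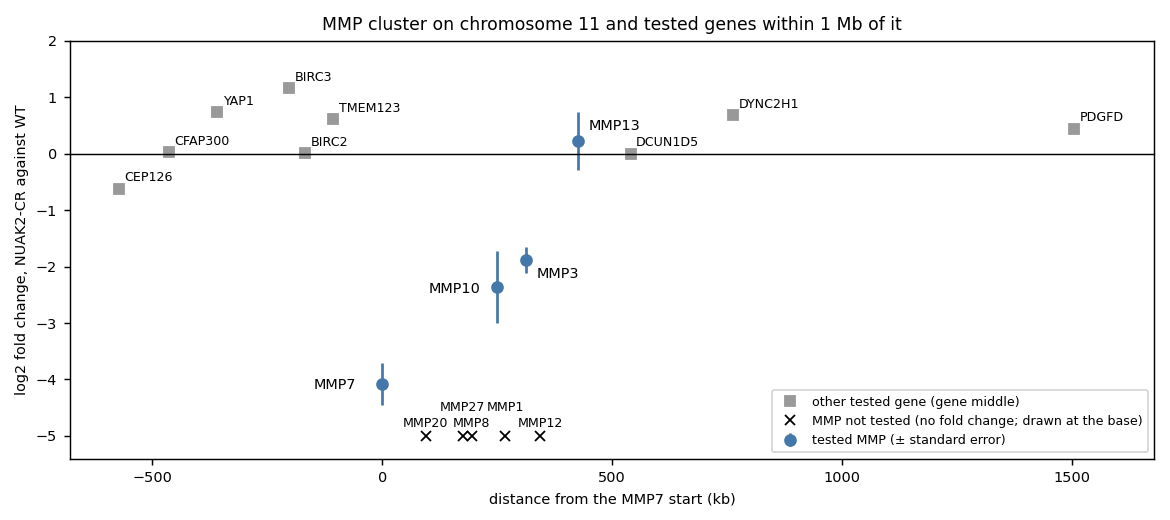
Log2 fold change in NUAK2-CR against WT (y axis) of the MMP cluster and the other tested genes within 1 Mb of it, by distance from the MMP7 start in kb (x axis), where crosses mark MMPs that were not tested. MMP7, MMP10 and MMP3 lie between -4.08 and -1.89, and the neighbouring genes between -0.62 and 1.16.

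The AP-1 letters were counted over the 250 bases before the start in the 44 members that matched the RefSeq promoter table, with 45 promoters. They were in 3 of the 10 promoters of members that fell (MMP7, MMP10 and ADAMTS12), in 0 of the 17 promoters of members that rose, and in MMP20 among those not tested. In all 35116 promoters of the table the share was 6.57%. The TATA letters were in 2 of the 10 promoters of lower members (MMP7 and MMP10), 0 of the 17 of higher members and 10.7% of all promoters. They were also in 5 of the 12 promoters of members not tested and 1 of the 6 of members not called. The TEAD letters GGAATG, read on both strands, were in 3 of the 17 promoters of higher members, 1 of the 10 of lower members and 11.9% of all. MMP7 and MMP10 had 33.6% and 34.4% G and C bases in this window, whereas the medians over promoters were close, at 71.0% for the 10 of members that fell and 69.2% for the 17 of members that rose. A match of letters does not show a bound site, and MMP1, MMP2, MMP3, MMP9, TIMP2, ADAMTS4 and ADAMTS15 were among the members not matched.

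Of the inhibitors, TIMP2 and TIMP3 rose strongly, TIMP1 barely and TIMP4 fell. TIMP2 (NCBI gene 7077, chr17:78852977-78925387) inhibits MMPs and also links MMP14 to proMMP2 when MMP14 activates it. Its normalized counts were 24847, 28758 and 27042 in WT and 73539, 75923 and 75830.4 in NUAK2-CR. The groups were well apart, with a log2 fold change of 1.48 (SE 0.07, adjusted p = 6.49e-09), so all 3 genes of the MMP14, TIMP2 and MMP2 complex were higher in NUAK2-CR. TIMP3 (NCBI gene 7078, chr22:32801705-32863041), which binds the matrix and also inhibits ADAM17 and several ADAMTS enzymes, had 639, 752 and 872 in WT and 5898, 6221 and 6983 in NUAK2-CR. Among the TIMPs it had the largest log2 fold change, 3.08 (SE 0.11, adjusted p = 6.67e-10).

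TIMP1, a broad inhibitor of secreted MMPs, had 5354, 5346 and 6166 in WT and 6353, 6468 and 6351 in NUAK2-CR. The groups were separate by a small margin, with a log2 fold change of 0.19 (SE 0.07, adjusted p = 0.0466). This call was lost with no filter beyond 1 count (adjusted p = 0.057), with the replicate numbers as a block (0.0514) and in 4 of the 6 fits that left out a library: WT replicate 2 (0.139) and NUAK2-CR replicates 1, 2 and 3 (0.077, 0.129 and 0.107). TIMP4, a TIMP of restricted expression, had 157, 186 and 228 in WT and 87.6, 72.4 and 95.5 in NUAK2-CR (log2 fold change -1.15, SE 0.21, adjusted p = 0.000473). TIMP4 lies within SYN2 on the opposite strand and shares 170 exon bases with it.

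**Figure D3:**
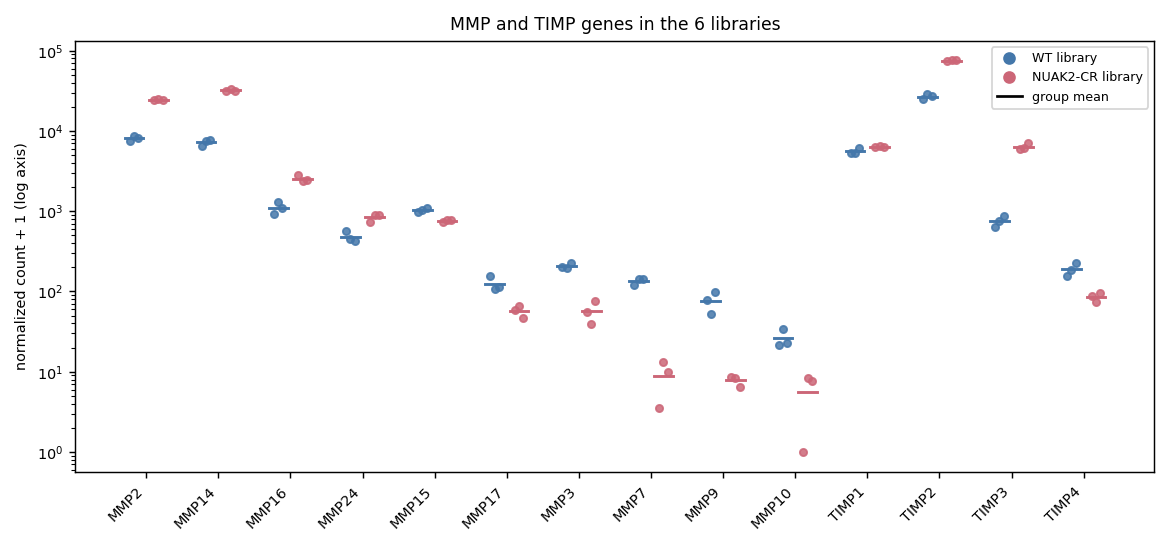
Normalized counts plus 1 (log y axis) of 10 MMPs and the 4 TIMPs (x axis) in each of the 3 WT and 3 NUAK2-CR libraries, with a line at each group mean. MMP2, MMP14, TIMP2 and TIMP3 are high and rise, whereas MMP3, MMP7, MMP9 and MMP10 are low in WT and lower still in NUAK2-CR.

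To compare levels between genes, normalized counts were divided by exon length in kb and summed over each family, as a description with no test. The MMP sum was 3703, 4213 and 4124 per kb in WT and 12767, 13202 and 12621 in NUAK2-CR, or 320.0% of WT. MMP2 and MMP14 made up 43.1% and 38.9% of it in WT and 40.6% and 54.2% in NUAK2-CR, so MMP14 passed MMP2 as the leading MMP. MMP15 was the third in WT with 6.08% and the fifth in NUAK2-CR with 1.40%. The 4 members of the chromosome 11 cluster that were tested contributed little to the sum; the largest, MMP3, fell from 2.81% to 0.236%.

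The TIMP sum was 7975, 8648 and 9000.0 per kb in WT and 17594, 18115 and 18204 in NUAK2-CR, or 210.0% of WT. TIMP2 held 50.7% of it in WT and 67.3% in NUAK2-CR, TIMP1 45.5% and 24.6%, and TIMP3 1.91% and 7.70%. The TIMP sum divided by the MMP sum was 2.15, 2.05 and 2.18 in WT and 1.38, 1.37 and 1.44 in NUAK2-CR. The TIMP sum was above the MMP sum in all 6 libraries, and the ratio was lower in every NUAK2-CR library than in every WT library.

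**Figure D4:**
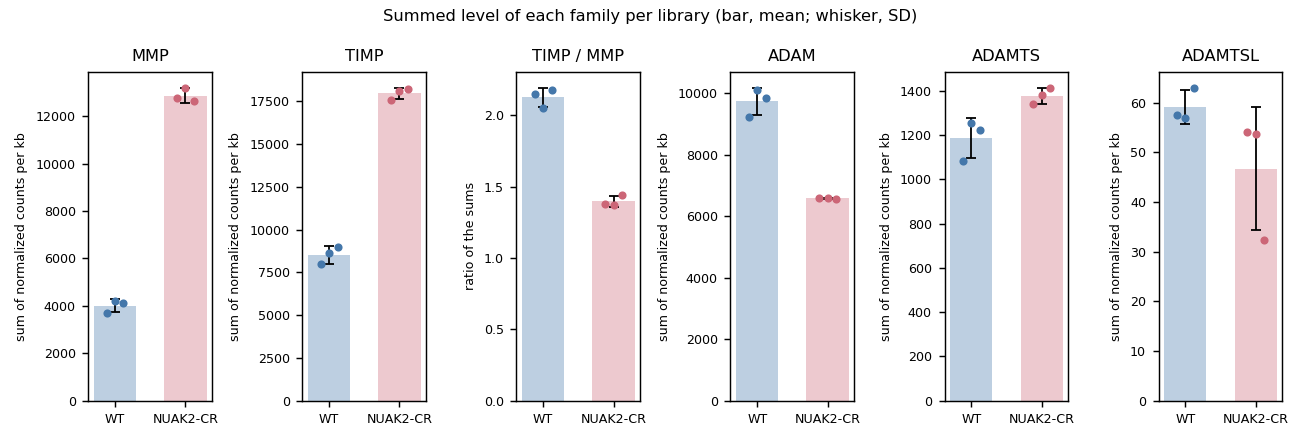
Sum of normalized counts per kb of exon over the members of each family, and the TIMP sum divided by the MMP sum (y axes), in the 3 WT and 3 NUAK2-CR libraries (x axis; points are libraries, bars means, whiskers SD). The MMP and TIMP sums are 320.0% and 210.0% of WT, and the ADAM sum is 67.7% of WT.

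Among ADAMs the most abundant members per kb, ADAM12 and ADAM19, fell. ADAM12, a sheddase known from tumours and regenerating muscle, had 41756, 46295 and 42206 normalized counts in WT, against 24334, 24490.3 and 24036 in NUAK2-CR. No library overlapped, with a log2 fold change of -0.84 (SE 0.07, adjusted p = 5.49e-07). ADAM19, a sheddase of neuregulins, fell from 23369 ± 1083 to 14822 ± 355, with a log2 fold change of -0.66 (SE 0.07, adjusted p = 3.78e-06). ADAM15 fell from 5414 ± 443 to 3725 ± 229, with a log2 fold change of -0.54. ADAM12 and ADAM19 together led the ADAM sum per kb in both groups, with 45.2% and 31.2% in WT and 37.3% and 29.2% in NUAK2-CR. The sum was 9237, 10108 and 9849 in WT and 6603, 6579 and 6573 in NUAK2-CR, or 67.7% of WT.

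The 2 main sheddases went the other way by small amounts. ADAM10, which cuts Notch receptors, had 6401, 8319 and 8243 in WT and 10226, 9707 and 10548 in NUAK2-CR (log2 fold change 0.41, SE 0.09, adjusted p = 0.00286). ADAM17, which releases TNF and EGF receptor ligands, went from 2882 ± 362 to 3439 ± 242, with a log2 fold change of 0.26 (SE 0.09, adjusted p = 0.0344). The ADAM17 call was lost without NUAK2-CR replicate 1 (adjusted p = 0.0709) or 3 (0.143), and ADAM17 shares 1645 exon bases with IAH1 on the opposite strand. ADAM9 was not called, at 11498 ± 1275 and 11098 ± 394 (log2 fold change -0.05, adjusted p = 0.632). ADAM8, a sheddase best known from leukocytes, was low, at 13.6 ± 3.41 and 30.9 ± 2.64, with a log2 fold change of 1.18 (SE 0.38, adjusted p = 0.0188); this call was lost without WT replicate 1 or 3 or NUAK2-CR replicate 2 (0.0606, 0.0686 and 0.0639). ADAM21 and ADAM28, near 30 normalized counts in both groups, were not called.

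ADAM11, ADAM22 and ADAM23 lack the catalytic motif and are neural surface proteins, of which ADAM22 and ADAM23 bind LGI proteins at synapses. ADAM22 had 53.8, 87.8 and 87.1 normalized counts in WT, against 339, 234 and 302 in NUAK2-CR. It was higher in every NUAK2-CR library, with a log2 fold change of 1.95 (SE 0.22, adjusted p = 1.25e-05), the largest among ADAMs. ADAM11 rose from 177 ± 23.7 to 278 ± 45.9, a log2 fold change of 0.65. ADAM23 fell from 716 ± 148 to 385 ± 41.1, a log2 fold change of -0.89 (SE 0.15, adjusted p = 0.000257). ADAM7, ADAM20, ADAM32 and ADAM33 had under 10 counts in each library, and ADAM2, ADAM18, ADAM29 and ADAM30, which are best known from the testis, had 0 in all 6.

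The ADAMTS family held the member with the largest change. ADAMTS18 (NCBI gene 170692, chr16:77282128-77435034), an orphan enzyme studied mainly in development and as a candidate tumour suppressor, had 25.9, 15.4 and 10.7 normalized counts in WT, against 904, 807 and 1063 in NUAK2-CR. It was low in WT and clearly expressed in NUAK2-CR, with a log2 fold change of 5.64 (SE 0.22, adjusted p = 1.28e-09). Its share of the ADAMTS sum per kb went from 0.227% to 10.2%. The only other ADAMTS in the same group of roles, ADAMTS16, was the most abundant of the family per kb, with 38.1% and 39.7% of the sum, and was not called, at 2669 ± 481 and 3211 ± 199 (log2 fold change 0.27, adjusted p = 0.0623).

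The procollagen N-propeptidases, ADAMTS2, ADAMTS3 and ADAMTS14, trim the amino ends of fibrillar procollagens. ADAMTS14 had 215, 185 and 162 in WT and 1243, 1152 and 1119 in NUAK2-CR. The groups were more than 5-fold apart, with a log2 fold change of 2.63 (SE 0.12, adjusted p = 3.04e-09). ADAMTS2 had 115, 100.3 and 106 in WT and 248, 298 and 325 in NUAK2-CR (log2 fold change 1.43, SE 0.17, adjusted p = 1.33e-05). ADAMTS3, which also processes VEGFC, was not called, at 38.1 ± 4.61 and 40.5 ± 6.72.

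The proteoglycanases, which cut aggrecan, versican and brevican, split. ADAMTS15 had 1914, 1931 and 1989.7 normalized counts in WT, against 408, 470.3 and 384 in NUAK2-CR. It was the second most abundant ADAMTS in WT per kb and the fifth in NUAK2-CR, with a log2 fold change of -2.21 (SE 0.09, adjusted p = 2.15e-09). ADAMTS4, aggrecanase-1, had 476, 424 and 469 in WT and 147, 147 and 103 in NUAK2-CR (log2 fold change -1.79, SE 0.16, adjusted p = 1.4e-06). Both fell clear of the WT range.

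The other tested proteoglycanases rose from lower levels. ADAMTS1 went from 251.3 ± 24.2 to 371 ± 40.3, a log2 fold change of 0.56, and ADAMTS9 from 75.0 ± 14.4 to 125 ± 28.9, a log2 fold change of 0.74 whose call was lost without WT replicate 3 (adjusted p = 0.0643) or NUAK2-CR replicate 3 (0.109). ADAMTS20 had raw counts of 6, 4 and 0 in WT and 25, 24 and 19 in NUAK2-CR, so it was near the floor in WT, with a log2 fold change of 3.21 (SE 0.63, adjusted p = 0.000805). ADAMTS5, aggrecanase-2, had raw counts of 11, 16 and 4 in WT and 19, 17 and 23 in NUAK2-CR. The rise, by 1.36 on the log2 scale (SE 0.50, adjusted p = 0.0327), was no longer called in 5 of the 6 fits that left out a library, all but the fit without WT replicate 2, with adjusted p between 0.0591 and 0.112. ADAMTS8, under 10 counts in each library, was not tested.

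The cartilage-protein cleaving pair went in opposite directions. ADAMTS12 had 731, 964 and 920.1 normalized counts in WT, against 348, 314 and 354 in NUAK2-CR (log2 fold change -1.36, SE 0.12, adjusted p = 1.41e-06). ADAMTS7 had 604, 714 and 733 in WT and 1078, 1195 and 1064 in NUAK2-CR (log2 fold change 0.70, SE 0.10, adjusted p = 6.04e-05). Neither gene's groups overlapped. Of the fibrillin-linked enzymes, ADAMTS19 (log2 fold change 1.87), ADAMTS6 (1.14) and ADAMTS17 (1.01) rose, and ADAMTS10 was not called (-0.28, adjusted p = 0.135). ADAMTS6 was the most abundant of the 3 that rose, at 109 ± 16.96 and 241 ± 47.3, whereas ADAMTS19 rose from 14.7 ± 8.29 to 53.8 ± 18.4 and ADAMTS17 from 41.1 ± 10.4 to 83.6 ± 15.3. ADAMTS13, which cuts von Willebrand factor in blood, rose from 30.4 ± 11.9 to 67.7 ± 10.2, a log2 fold change of 1.13.

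**Figure D5:**
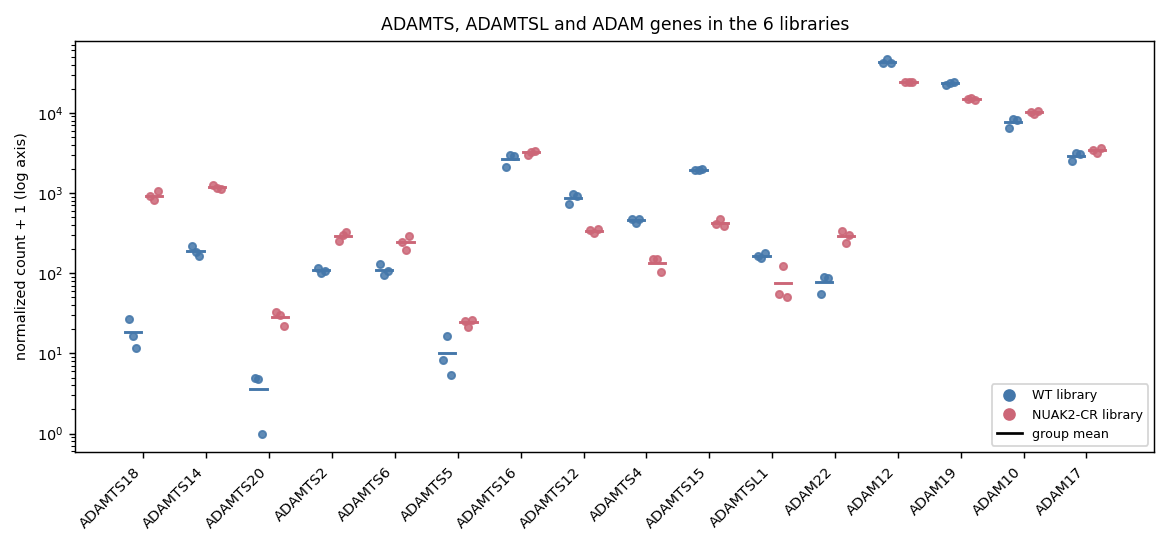
Normalized counts plus 1 (log y axis) of 10 ADAMTS genes, ADAMTSL1 and 5 ADAMs (x axis) in each of the 3 WT and 3 NUAK2-CR libraries, with a line at each group mean. ADAMTS18 moves from 10.7 to 25.9 in WT to 807 to 1063 in NUAK2-CR, and ADAMTS15 from 1914 to 1989.7 to 384 to 470.3.

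In sum per kb, the ADAMTS family stood at 1084, 1254 and 1225 in WT and 1340.0, 1381 and 1413 in NUAK2-CR, or 116.0% of WT. ADAMTS15 went from 27.4% to 5.09% of it and ADAMTS14 from 2.86% to 15.3%. The ADAMTSL sum was 57.6, 56.8 and 63.0 in WT and 54.1, 53.6 and 32.4 in NUAK2-CR. ADAMTSL1, also named punctin, had 165, 151 and 176 normalized counts in WT, against 53.3, 121 and 49.4 in NUAK2-CR. NUAK2-CR replicate 2 stood nearer to WT than the other two, and the log2 fold change was -1.14 (SE 0.30, adjusted p = 0.00605). ADAMTSL4, which binds fibrillin, and ADAMTSL5 were not called (log2 fold changes -0.01 and -0.27), and ADAMTSL2 and ADAMTSL3 had under 10 counts in each library.

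Lists of genes that work with these families were read beside the same background, in which 54.5% of genes were called. Of 22 activators and inhibitors, 18 were tested, 8 rose and 7 fell (83.3% called), with a median log2 fold change of 0.24. LRP1, the endocytic receptor that clears MMP and TIMP complexes, rose by 2.46, SERPINE2, an inhibitor of plasminogen activators and thrombin, by 2.40, and SPOCK3, a testican, by 2.25. PAPLN, or papilin, an ADAMTS-like inhibitor, had a log2 fold change of -2.82, the proprotein convertase PCSK5 one of -1.63, and TFPI2, a protease inhibitor, one of 1.63. The other 9 called genes of the list lay between -1.27 and 0.76. All 9 partners of ADAM10 or ADAM17 were tested, 3 rose and 5 fell (88.9% called), with a median of -0.22. The tetraspanins TSPAN15 and TSPAN33, which carry ADAM10 to the surface, had log2 fold changes of -1.59 and -1.27. RHBDF1, or iRhom1, which escorts ADAM17, rose by 1.08. The other 5 called partners lay between -0.73 and 0.50. Of the 4 LGI ligands of ADAM22 and ADAM23, 3 were tested, and 1, LGI2, fell, with raw counts of 25, 16 and 16 in WT and 2, 3 and 10 in NUAK2-CR (log2 fold change -1.46, SE 0.57, adjusted p = 0.0445). LGI2 and PAPLN needed their WT libraries to pass the filter.

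Of 30 proteins known to be shed, 26 were tested, 11 rose and 8 fell (73.1% called), with a median of 0.20. EREG, an EGF receptor ligand, had raw counts of 8, 2 and 0 in WT and 54, 24 and 48 in NUAK2-CR, with a fitted log2 fold change of 4.11 (SE 0.64) over a group near 0. It passed the filter only through NUAK2-CR and so had to differ to be tested. NOTCH3, a Notch receptor, rose by 2.42. CD44, the hyaluronan receptor, fell from 121881 ± 16233 to 41756 ± 1025, a log2 fold change of -1.55, and IL6R and CX3CL1 had -1.28 and -1.21. LRP1 is also on this list, and the other 13 called genes lay between -1.10 and 1.16. Of 18 proteoglycan, procollagen and related substrates, 14 were tested, 10 rose and 3 fell (92.9% called), with a median of 0.59. FN1, encoding fibronectin, rose by 3.23, LTBP1, which holds latent TGF-beta in the matrix, by 2.73, the collagen gene COL2A1 by 2.49, the fibrillin gene FBN2 by 2.32 and VCAN, encoding versican, by 1.30, whereas BCAN, encoding brevican, had -1.51. The other 7 called substrates lay between -1.15 and 0.78. The matrix genes of this list were known from earlier results of these data, so they are no independent evidence.

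Of 26 transcription factors and co-activators known to act on MMP genes, all were tested, 14 rose and 3 fell, with a median of 0.27. The called share, 65.4%, was near the background of 54.5%. SNAI1 fell from 58.1 ± 3.27 to 6.86 ± 2.97 normalized counts, a log2 fold change of -3.08 (SE 0.40, adjusted p = 3.12e-05). ETV4, an ETS factor, rose by 1.51, the co-activator WWTR1 (TAZ) by 1.13, JUND, an AP-1 subunit, by 1.09, and ZEB1 by 1.02. SNAI1 passed the filter only through WT, with 8, 5 and 4 raw counts in NUAK2-CR, so it had to differ to be tested. The other 12 called factors lay between -0.45 and 0.99.

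The labelled cell type was checked against markers. Of 10 markers of an astrocytic glioma line, 9 had at least 10 counts in every library and OLIG2 had 0 in all, and their sum was 337442 to 374731 normalized counts in WT, against 152416 to 159883 in NUAK2-CR. The sum was held mainly by GFAP, VIM and CD44. Log2 fold changes were -2.60 for S100B, -2.56 for GFAP, -1.56 for NES, -1.55 for CD44 and -1.11 for SOX2. FABP7 was at -0.65, VIM at -0.49 and SOX9 at -0.135, whereas EGFR was at 0.70. Since MMP9 and MMP12 are also made by macrophages, 7 macrophage or microglia markers were read: AIF1, TYROBP and C1QA were at 0 in all 6 libraries, and the sum, held by CD68 and CSF1R, was 846 to 964 in WT and 239 to 286 in NUAK2-CR. For 6 endothelial markers the sum was 252 to 339 in WT and 186 to 218 in NUAK2-CR, and for 6 epithelial ones 5542 to 6294 and 6642 to 7223. For 7 fibroblast or pericyte markers it was 27662 to 30484 in WT and 21301 to 22645 in NUAK2-CR, and for 5 neuronal ones 17949 to 20627 and 15397 to 16022. THY1, COL1A1 and TUBB3 made up most of the last sums. Several less abundant markers were higher in every NUAK2-CR library, and others were lower in each. FAP was at 189 to 279.8 in WT and 2079 to 2188 in NUAK2-CR, DCN at 0 to 5.98 and 196 to 211, LUM at 1.33 to 9.67 and 30.5 to 36.2, and PDGFRB at 837 to 875 and 1735.8 to 1799. SNAP25 was at 57.8 to 76.3 in WT and 686 to 834 in NUAK2-CR. The endothelial PECAM1 was at 0 to 1.33 and 15.2 to 16.9, and VWF at 12.9 to 25.2 and 52.7 to 67.3. Among those that were lower, the endothelial KDR was at 195 to 279.8 in WT and 97.7 to 110 in NUAK2-CR. RGS5 was at 197 to 237 and 103 to 124, and KRT19 at 199.9 to 283.8 and 20.3 to 33.8. The part of these markers in the results was not tested, and in bulk RNA fewer cells of a kind and less RNA per cell cannot be told apart. Counts on genes summed to 35310946 to 55574081 in WT and 29648445 to 33776712 in NUAK2-CR.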

How the data were processed

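Polyadenylated RNA of U251MG WT and NUAK2-CR cells was sequenced, 3 libraries each, with the Illumina Stranded mRNA Prep kit. The authors deposited raw counts per gene, made with Trimmomatic, HISAT2 (hg38) and featureCounts at default parameters; the annotation and strand setting are not given in the sources used here. Groups and replicate numbers came from the sample titles. Of 28395 NCBI gene identifiers 27745 matched a symbol. Totals were 29648445 to 55574081 counts per library, and intervals or floors (3 counts) cover counting error only.

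In R 4.3.3, edgeR 4.0.16 (filterByExpr, TMM, glmQLFit, glmQLFTest, prior count 0.125) tested 14873 genes, with Benjamini-Hochberg adjustment over all of them; the common biological coefficient of variation was 0.101. The fit was run on simulated counts, with dispersions taken from these data. It recovered 189 of 199 changed genes and also called 19 of 14474 unchanged ones. Far fewer genes were changed there than the 54.5% called here, so the run does not measure the share of false calls in these data. Any standard error (SE) given is the size of the log2 fold change, fitted without a prior count, over the square root of the test's F statistic. It restates the p-value and is no separate measure of precision. For normalized counts, each library was scaled to the mean of the effective library sizes, and lengths are unions of GENCODE v44 exons. DESeq2 1.42.0, RLE and library-size scaling, other filters, each library left out, a replicate block, a prior count of 2, a log2 fold change over 1, the median of the 20 nearest tested genes and, added after the data were seen, canonical transcript lengths and the scaling and left-out libraries for the summed levels, were the alternatives. The 20 nearest tested genes were 10 on each side by start where present, and their median was taken less the median over all genes tested. Promoters came from RefSeq (44 of 71 members matched). Figures and tables used Python 3.11.15, pandas 2.3.3 and matplotlib 3.10.9.

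The members, gene lists, marker lists and tests were chosen with earlier results of these data known. The text names members called with an absolute log2 fold change over 1, the 5 most abundant tested members per kb of each family, other tested members with their values, untested members with raw counts where a library reached 10, up to 6 genes of each related list (called, absolute log2 fold change over 1, by size), neighbours of the MMP cluster, and NUAK2. No per-sample column of the table was left unused.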

Additional observations from a re-analysis of the deposited data

How the results depend on the processing

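All 40 called members kept their direction under every alternative that gave a value, and 34 stayed called in all of them; the 6 others were TIMP1, ADAMTS5, ADAM8, MMP25, ADAM17 and ADAMTS9. Less the median of the 20 nearest tested genes, all 40 kept their sign. Members higher ranged from 20 to 25 and lower from 15 to 16 with a library left out, DEGs higher from 5 to 7 and lower from 3 to 5; DESeq2 gave 26, 15, 5 and 4. With at least 10 counts in every library, 1 lower DEG (ADAMTS15) was left in place of 4, since MMP7, MMP9 and MMP10 were then not tested. With the replicate block, 25 were higher and 15 lower, with 5 and 4 DEGs, and only TIMP1 lost its call (log2 fold change 0.19, adjusted p = 0.0514). For log counts less each gene's mean in its own group, same-numbered libraries correlated at 0.043, -0.035 and 0.048. The other pairs of a WT and a NUAK2-CR library lay between -0.066 and 0.021. These values gave no clear sign of pairing by number, but so few libraries cannot exclude it.

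With a library left out, 6 members that were not called changed sign, with log2 fold changes of -0.0572 to 0.6053 (MMP13), -0.7001 to 0.1615 (ADAM21), -0.4457 to 0.0494 (ADAM28), -0.1293 to 0.0184 (ADAM9), -0.0436 to 0.1988 (ADAMTS3) and -0.1546 to 0.1688 (ADAMTSL4). With canonical transcript lengths the ADAM sum in NUAK2-CR was 0.734 of WT in place of 0.677, and the other 4 family sums moved by less than their spread. With a library left out the ratios were 3.10 to 3.28 for MMPs, 0.663 to 0.689 for ADAMs, 1.12 to 1.19 for ADAMTS, 0.732 to 0.912 for ADAMTSL and 2.05 to 2.16 for TIMPs. Depth limits what can be said of MMP9, MMP10 and ADAMTS20, which had at most 6 counts in each library of their lower group.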
